A study of Mus musculus with 45 samples.

Results

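The proteasome genes described here were the 51 of 26214 rows of the deposited expression table whose symbol starts with Psm, a letter from a to g and a digit. Of these, 49 encode subunits, activators, an inhibitor or assembly chaperones of the proteasome. The other 2, Psmc3ip, a cofactor of meiotic recombination, and Psme3ip1, which binds the activator subunit Psme3, matched by their letters only and were counted separately. The 49 genes comprised 7 constitutive alpha and 7 constitutive beta subunits of the 20S core, the meiotic alpha subunit Psma8, 4 immune and thymic beta subunits, 6 ATPases and 3 other subunits of the base of the 19S cap, 8 subunits of its lid, 3 chaperones of the base, 4 chaperones of the core, 5 activator genes and the inhibitor Psmf1.

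The proteasome is the protease that degrades ubiquitin-tagged proteins. Its 20S core is a barrel of stacked rings, with alpha subunits as the gate and beta subunits, some of them the proteases, inside. The 19S cap binds ubiquitin chains with its base and lid, removes them, and threads the substrate into the core with a ring of ATPases, while other activators open the core without ATP. In the mouse, a fully grown oocyte (FGO) carries stored maternal RNA and protein that the embryo clears around the time its own genome becomes active in the two-cell stage, and the proteasome takes part in that clearance.

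The study asked what loss of H3K36me2 in oocytes does to the oocyte and its embryo. Control FGOs (n = 3) came from H3f3b K36M-flox/+ females, and K36M FGOs (n = 3) from H3f3b K36M-flox/+; Gdf9-Cre females, in which an oocyte-specific promoter drives Cre so that a K36M histone H3.3 is made. Both genotypes therefore carry the floxed allele, on a hybrid C57BL/6 / 129 background, and the females were 3 to 4 weeks old. Two-cell embryos from control oocytes (n = 7) and from K36M oocytes (n = 8) were obtained by in vitro fertilisation with JF-1 sperm and collected 31 to 32 hours after fertilisation. Each FGO library was made from a pool of oocytes and each embryo library from a single embryo, with more amplification cycles. Stage therefore came together with pooling, amplification and the paternal JF-1 genome, and these cannot be told apart in the comparisons of embryos with FGOs. The unit was TPM, a transcript level scaled for gene length and to one total per library, so that the number of reads behind a value is unknown. TPM are shares of a library's total, so a rise or fall between stages is one of share, and the amount of RNA per oocyte or embryo is unknown.

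The libraries followed their labels for stage. The summed TPM of a list of oocyte markers was 16477 to 16711 in control FGOs and 775.4 to 2174 in control embryos, and that of a list of two-cell stage genes was 50.4 to 73.9 and 368.5 to 1872. The oocyte markers summed to 13993 to 15398 TPM in K36M FGOs, below every control FGO library. Every embryo library had fewer total reads than every FGO library in the study's list of libraries, and the part of this in the differences between stages was not tested. H3f3b, the targeted gene, was at 293 ± 24.6 TPM in control and 398 ± 20.8 TPM in K36M FGOs (SD, n = 3 each; adjusted p = 0.281, limma), which does not show whether its RNA carried the mutation. Genes at 1 TPM or more numbered 13218 to 14131 in FGOs, 10774 to 15557 in control embryos and 9722 to 13303 in K36M oocyte-derived embryos, of which replicates 2 and 8 were lowest, with 9722 and 9763. One control embryo, replicate 4, was labelled as excluded and entered no main comparison, only the alternatives that say it was added.

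In control FGOs the proteasome genes lay in the upper part of the transcriptome. The median of their mean levels was 128.6 TPM, against 20 TPM over all 13855 genes at 1 TPM or more, and 39 of the 49 were above that value. Psmd4, the ubiquitin receptor of the cap, was highest, at 973, 974 and 1002 TPM in the 3 control libraries. Psme3, which forms a nuclear activator ring, followed at 378, 374 and 373 TPM, and the alpha subunit Psma7 at 317, 322 and 335.5 TPM. The level of Psmd4 was above that of every other member beyond the spread between libraries, whereas Psma7 did not differ from Psma4 (316, 311 and 338 TPM) beyond theirs. At the other end were Psmg2, a chaperone of the alpha ring, with 2.69, 2.59 and 1.91 TPM, the thymic beta subunit Psmb11, with 1.82, 1.21 and 2.46 TPM, and the immune subunit Psmb10, with 1.48, 1.39 and 1.00 TPM. Psma8, Psmb8 and Psmb9 were below 1 TPM on average in FGOs of both genotypes.

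**Figure D1:**
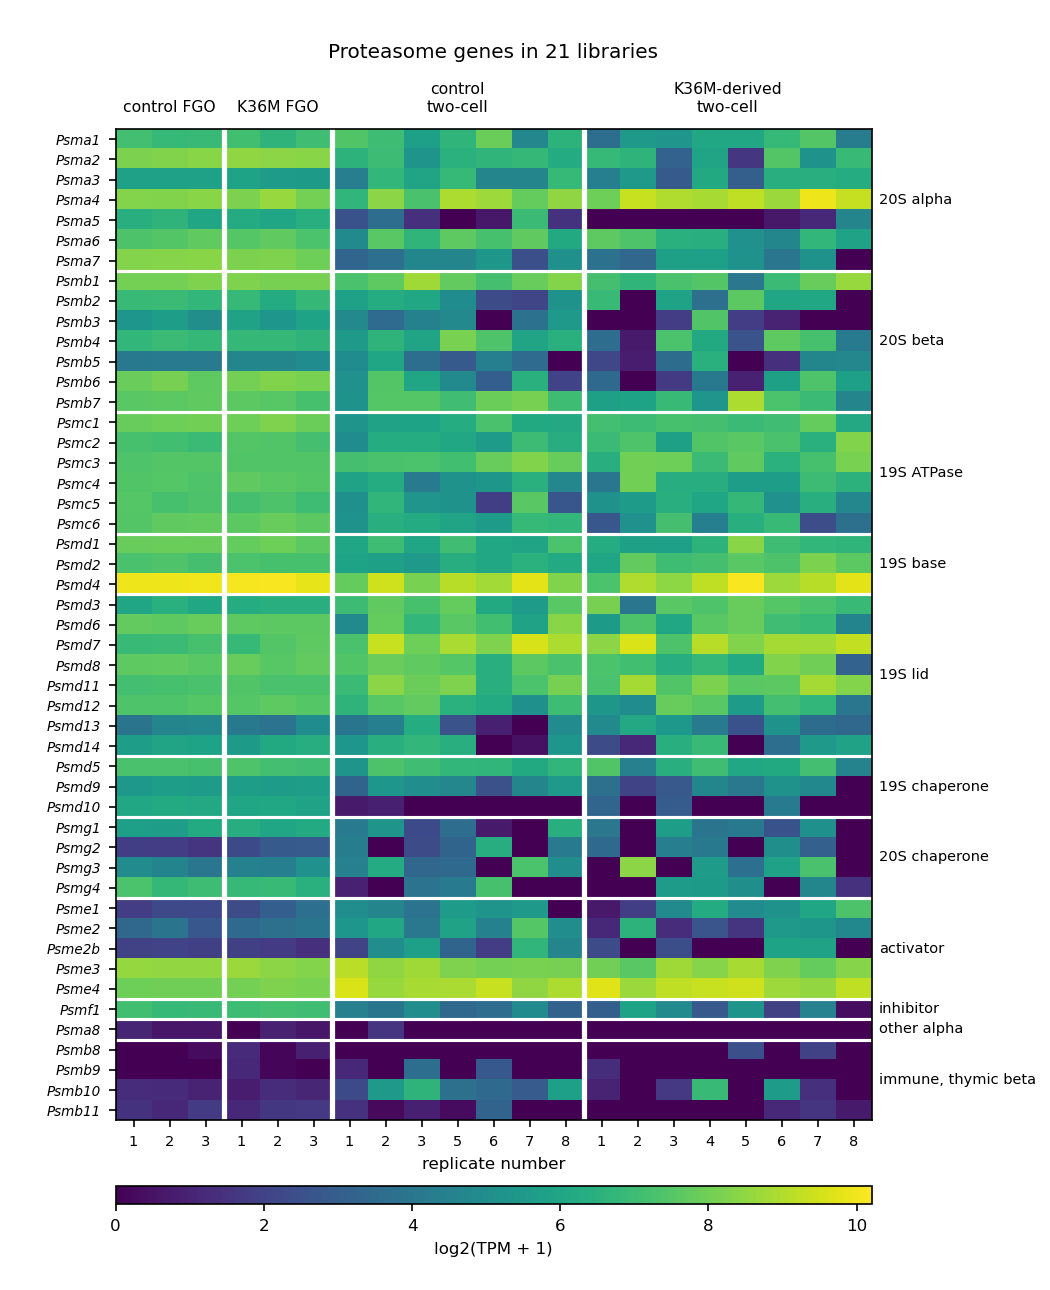
Heat map of log2(TPM + 1) for the 49 proteasome genes (rows, grouped by place in the complex) in the 21 compared libraries (columns, grouped as control FGOs, K36M FGOs, control embryos and K36M oocyte-derived embryos). Psmd4 is the highest row in control FGOs, the immune subunits are near 0 there, and single cells at 0 appear in the embryo columns, for example for Psmd10 and Psma5.

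Subunits that stand in equal number in the finished particle had unequal RNA levels. Among the 7 constitutive beta subunits of control FGOs the mean level ranged from 16.9 TPM for Psmb5, the chymotrypsin-like protease, to 278.5 TPM for Psmb1, a 16.5-fold range. The alpha subunits ranged 5.77-fold, from Psma3 at 56.3 TPM to Psma7 at 325 TPM. The 6 ATPases of the base were the most even group, from Psmc2 at 137 TPM to Psmc1 at 245 TPM, a ratio of 1.785. In control embryos the ATPases ranged 3.97-fold, from Psmc4 at 48.7 TPM to Psmc3 at 194 TPM.

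Summed over its genes, each part of the complex had its own course between stages. The 14 constitutive core genes summed to 2398 ± 55.2 TPM in control FGOs (SD, n = 3) and to 1411 ± 319 TPM in control embryos (SD, n = 7), and the highest embryo, at 1743 TPM, was below the lowest FGO library, at 2335 TPM. The 17 cap genes summed to 3475 ± 73.0 and 2492 ± 709 TPM. Within the cap, Psmd4 alone went from 983 to 485 TPM and the ATPase ring from 1092 ± 15.3 to 525 ± 181 TPM, whereas the 8 lid genes summed to 1012 ± 42.2 TPM in control FGOs and 1319 ± 446 TPM in control embryos, which ranged from 751 to 1948 TPM and overlapped the FGOs. Within the lid, Psmd7 alone went from 129 to 438 TPM, while 5 of the 8 lid genes had a negative log2 difference (median -0.5). The cap as a whole had no embryo as high as an FGO library, but only just, with the highest embryo at 3387 TPM and the lowest FGO library at 3394 TPM. The 7 assembly chaperones, at 488 ± 18.8 and 239 ± 82.2 TPM, were further apart, with the highest embryo at 339 TPM and the lowest FGO library at 469 TPM. The 5 activator genes went the other way, from 643.5 ± 4.35 to 995.5 ± 203 TPM, with the lowest embryo at 831 TPM and the highest FGO library at 648 TPM. With median-of-ratios scaling the median activator sum went from 692 TPM in control FGOs to 833 TPM in control embryos, against 642.7 and 974.8 TPM as deposited. The K36M groups ran in parallel: the core summed to 2407 ± 115 TPM in FGOs and 1399 ± 359 TPM in embryos (n = 8), the cap to 3633 ± 176 and 2875 ± 576 TPM, the chaperones to 471 ± 27.4 and 232 ± 117 TPM, and the activators to 662.5 ± 30.7 and 980 ± 185 TPM. In the K36M groups the highest embryo's cap sum, 3462 TPM, was just above the lowest FGO library's, 3458 TPM, and the activator sums of embryos, from 699 TPM up, did not overlap those of FGOs, which reached 691 TPM.

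**Figure D2:**
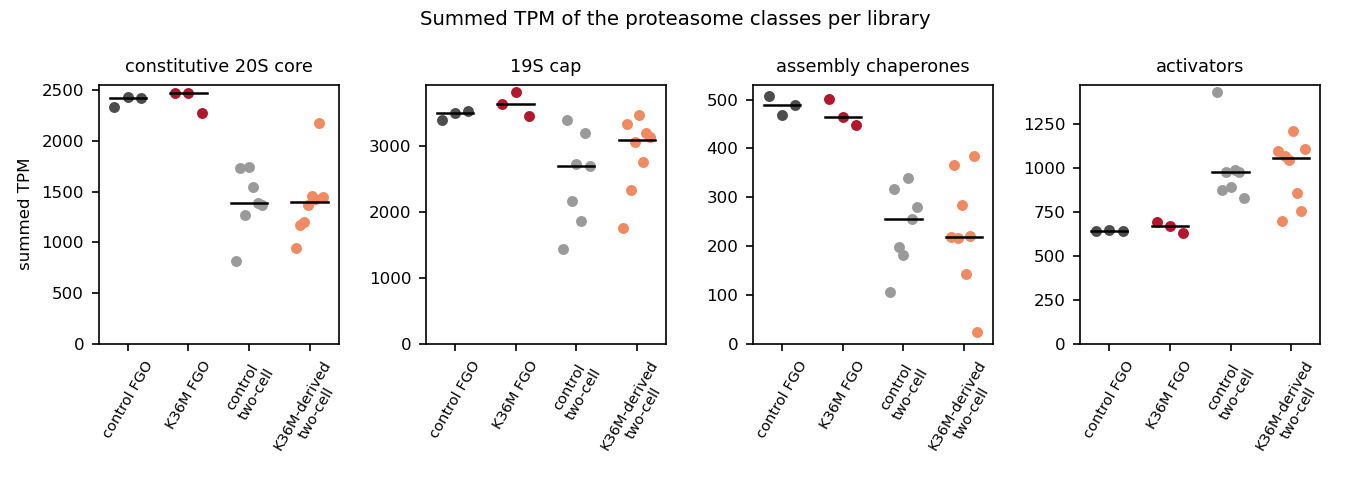
Summed TPM per library of the core, cap, chaperone and activator genes in the 4 groups; each point is 1 library and each line the group's median. Core and chaperone sums of embryos lie below those of FGOs, and activator sums lie above them, in both genotypes.

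The comparison of control embryos with control FGOs asked which proteasome RNAs differed after fertilisation. Of 47 proteasome genes tested, 2 rose and 11 fell (adjusted p under 0.05, limma on log2(TPM + 1)). Over all 17358 genes tested, 13.4% rose and 13.2% fell. The median log2 difference of the 47 genes was -0.69, against 0.00 over all genes. The genes that rose were the activator Psme4 and the lid subunit Psmd7. Those that fell were the alpha subunits Psma5 and Psma7, the ATPases Psmc1, Psmc4 and Psmc5, all 3 other base subunits Psmd1, Psmd2 and Psmd4, the chaperones Psmd10 and Psmg4, and the inhibitor Psmf1. No lid gene and no beta subunit was called lower. The groups did not overlap for 4 members that were higher and 12 that were lower in embryos, against 14.1% and 18.2% of all genes. With all 4 groups in the fit, leaving out control FGO replicate 1, 2 or 3 left 3, 4 and 6 genes lower, with Psma7, Psmc1 and Psmd10 called each time; over all genes the count that fell dropped from 2292 to 1265, 1313 and 1285. With median-of-ratios scaling, 1954 genes rose and 3118 fell in all, against 2323 and 2292 with the values as deposited, and 2 and 12 members did so.

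In the K36M line, embryos against FGOs also gave 2 proteasome genes that rose and 11 that fell, against 10.8% and 18.6% of all genes. Psme4 and Psmd7 rose again. The genes that fell were the alpha subunits Psma2, Psma5 and Psma7, the beta subunits Psmb3 and Psmb6, the ATPases Psmc1 and Psmc6, the chaperones Psmd9, Psmd10 and Psmg4, and Psmf1. The median log2 difference over the 47 genes was -1.05, against -0.18 over all genes. Psma5, Psma7, Psmc1, Psmd10, Psmf1 and Psmg4 fell in both genotypes, 54.55% of each list of genes that fell. The same share over all genes was not computed, so this one is not set against a background. The groups did not overlap for 1 member higher and 12 lower in embryos, against 9.04% and 17.2% of all genes. With median-of-ratios scaling 2 members rose and 16 fell (1732 and 3741 over all genes). Psmc4, Psmd1, Psmd4, Psmd12 and Psmg1 were then also called lower, the first 3 of them in both genotypes. Without K36M FGO replicate 1, Psmd7 was no longer called (adjusted p = 0.109) and 1 gene rose. Leaving out K36M FGO replicate 1, 2 or 3 left 8 genes lower each time (2052, 2074 and 2005 over all genes, against 3228), and the calls of Psmc1, Psmd9 and Psmg4 were lost each time, so that of the 6 genes that fell in both lines only Psma7 and Psmd10 were called without any 1 FGO library of either line.

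**Figure D3:**
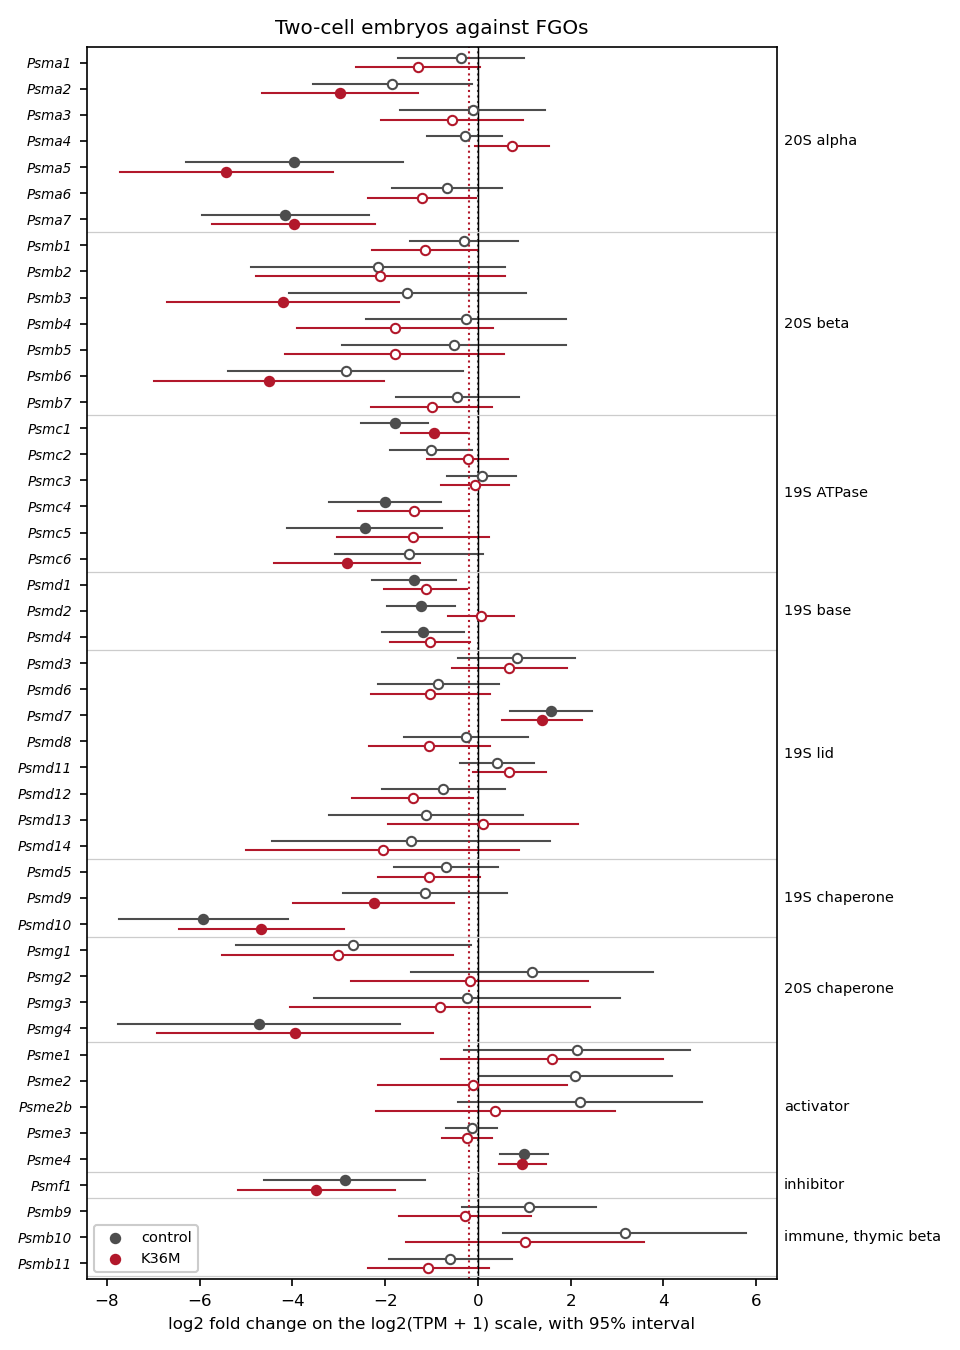
Log2 difference of embryos against FGOs for each tested proteasome gene, control and K36M side by side, with 95% confidence intervals; filled points passed adjusted p under 0.05 and the dotted line is the median of all genes tested. Psmd10, Psmg4, Psma7 and Psma5 lie farthest below 0 in the control line and Psma5, Psmd10, Psmb6 and Psmb3 in the K36M line, and Psmd7 and Psme4 are the filled points above it.

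To show the promoters of genes called in both genotypes, 200 bases before the RefSeq start site on GRCm38.p6 are given here for the 6 that fell and for Psme4; there was no entry for Psmd7. The start used for Psmf1 lies inside the RefSeq gene, which spans chr2:151716062-151744199, while each of the others lies at the 5′ end of its gene. Each runs 5′ to 3′ on the strand of its gene, and capitals mark matches, on either strand, to CCGGAAG (the core of ETS factor sites), CCAAT or TGACNNNGC (the core of the site of Nfe2l1 and related factors, which drive proteasome genes).
Psma5 (chr3:108256726-108256925, plus strand): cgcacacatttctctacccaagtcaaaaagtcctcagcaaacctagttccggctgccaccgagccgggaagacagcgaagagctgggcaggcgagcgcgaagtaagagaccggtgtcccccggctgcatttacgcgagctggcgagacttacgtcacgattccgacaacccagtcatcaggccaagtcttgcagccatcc
Psma7 (chr2:180042465-180042664, minus strand): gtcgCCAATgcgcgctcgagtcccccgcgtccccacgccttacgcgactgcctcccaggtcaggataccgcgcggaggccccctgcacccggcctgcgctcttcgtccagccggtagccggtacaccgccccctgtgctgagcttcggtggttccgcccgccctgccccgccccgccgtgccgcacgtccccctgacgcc
Psmc1 (chr12:100110002-100110201, plus strand): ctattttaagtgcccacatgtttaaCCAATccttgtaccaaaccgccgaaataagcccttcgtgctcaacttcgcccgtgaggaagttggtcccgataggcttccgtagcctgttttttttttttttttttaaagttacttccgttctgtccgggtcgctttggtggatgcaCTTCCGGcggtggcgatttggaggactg
Psmd10 (chrX:140956712-140956911, minus strand): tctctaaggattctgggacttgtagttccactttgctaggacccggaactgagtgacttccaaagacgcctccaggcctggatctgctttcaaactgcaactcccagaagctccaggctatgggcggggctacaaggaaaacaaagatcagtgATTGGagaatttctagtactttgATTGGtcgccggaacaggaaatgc
Psmf1 (chr2:151741311-151741510, minus strand): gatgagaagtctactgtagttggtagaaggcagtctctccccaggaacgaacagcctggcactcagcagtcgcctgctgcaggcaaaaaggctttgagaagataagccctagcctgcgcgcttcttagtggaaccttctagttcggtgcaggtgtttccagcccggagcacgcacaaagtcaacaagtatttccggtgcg
Psmg4 (chr13:34162764-34162963, plus strand): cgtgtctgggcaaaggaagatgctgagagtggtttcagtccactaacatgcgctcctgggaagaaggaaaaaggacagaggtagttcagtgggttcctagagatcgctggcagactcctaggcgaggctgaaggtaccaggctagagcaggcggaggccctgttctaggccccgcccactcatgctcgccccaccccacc
Psme4 (chr11:30771575-30771774, plus strand): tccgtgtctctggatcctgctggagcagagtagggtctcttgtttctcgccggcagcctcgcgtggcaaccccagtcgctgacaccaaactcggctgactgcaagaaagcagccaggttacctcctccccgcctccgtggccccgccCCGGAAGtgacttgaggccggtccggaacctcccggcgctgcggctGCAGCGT
Psmd10 holds CCAAT on the opposite strand, Psmc1 holds CCAAT and, near its start, the ETS core on the opposite strand, and Psma7 holds CCAAT far from its start. Psme4 holds the ETS core, and the capitals at its end are the part within these bases of a TGACNNNGC match on the opposite strand that runs on past the start. Psma5, Psmf1 and Psmg4 show no capitals, which says only that these letters are not in this window.

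Over the whole promoter windows, from 250 bases before to 50 after the start, 44 RefSeq promoters matched 41 of the 49 genes. The ETS core was in 15 of the 44 (34.1%), against 8.86% of all 32851 promoters. CCAAT was in 14 (31.8%, against 37.4%), and TGACNNNGC in 6 (13.6%, against 12.4%). Of the 16 promoters of genes that fell in at least 1 genotype, 4 held the ETS core (25%), and of the other 28, 11 did (39.3%). These are descriptions of letters, not of binding.

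Among the alpha subunits, Psma7 (chr2, minus strand), a gate subunit that neighbours the ATPase ring, was at 317, 322 and 335.5 TPM in control FGOs and at 292, 298 and 248.5 TPM in K36M FGOs. In control embryos its lowest, median and highest values were 4.60, 23.7 and 41.2 TPM, and in K36M oocyte-derived embryos 0, 25.9 and 54.4 TPM. No embryo of either genotype reached the lowest FGO library. The log2 difference was -4.15 (SE 0.87, adjusted p = 0.000937, limma) in the control line and -3.97 (SE 0.85, adjusted p = 0.00104) in the K36M line.

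Psma5, another alpha subunit, stood at 83.8, 97.3 and 63.6 TPM in control FGOs and at 75.9, 63.7 and 85.3 TPM in K36M FGOs. Control embryos had 0, 1.79 and 121 TPM as lowest, median and highest, and 5 of 8 K36M oocyte-derived embryos were listed at 0, with a highest value of 24.0 TPM. One control embryo was thus above every FGO library, while in the K36M line the groups did not overlap. Psma5 fell by 3.96 on the log2 scale in the control line (SE 1.13, adjusted p = 0.0117, limma) and by 5.42 in the K36M line (SE 1.11, adjusted p = 0.000675). The call in the control line was lost without control FGO replicate 1 or 2, with adjusted p from 0.0503 to 0.0563 over these and a pseudocount of 0.1. The remaining alpha subunits differed less: Psma2 went from 289, 310 and 335 TPM in control FGOs to 38.3, 94.7 and 125 TPM (lowest, median, highest) in control embryos, with no overlap, yet its adjusted p was 0.106 there and 0.00776 in the K36M line (limma), where its log2 difference was -2.97.

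The constitutive beta subunits, which include the proteases, were all lower in embryos by sign in both lines, 7 of 7. Psmb6, the caspase-like protease, had 230, 272 and 200 TPM in control FGOs and 264, 310.5 and 280 TPM in K36M FGOs. Control embryos spanned 3.16 to 177 TPM with a median of 34.8 TPM, and K36M oocyte-derived embryos 0 to 169 TPM with a median of 13.3 TPM. All embryos were below all FGO libraries of their genotype. Psmb6 fell by 4.50 (SE 1.203, adjusted p = 0.00627, limma) in the K36M line, and had a log2 difference of -2.85 (adjusted p = 0.0885) in the control line. Psmb3, a structural beta subunit, was listed at 0 in 4 of 8 K36M oocyte-derived embryos and at 174 TPM in another, against 57.6, 40.5 and 59.6 TPM in K36M FGOs, and fell by 4.20 (SE 1.21, adjusted p = 0.0107, limma); the groups overlapped through that embryo. Psmb1, Psmb4, Psmb5 and Psmb7 had log2 differences from -0.26 to -0.51 in the control line and passed the test in neither line.

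In the base of the cap, Psmc1, whose tail helps open the gate of the core, had 227, 243 and 263 TPM in control FGOs and 246, 295 and 236 TPM in K36M FGOs. Its lowest, median and highest values were 37.6, 70.9 and 155 TPM in control embryos and 70.4, 137.5 and 221 TPM in K36M oocyte-derived embryos. Neither pair of groups overlapped. The log2 difference was -1.79 (SE 0.35, adjusted p = 0.000492, limma) in the control line and -0.95 (SE 0.34, adjusted p = 0.0407) in the K36M line. The second call was lost without any 1 of the K36M FGO libraries, without the mean-variance trend and without embryo replicates 2 and 8. Psmc4, at 169, 182 and 165 TPM in control FGOs, was at 16.7, 41.3 and 87.1 TPM in control embryos, and fell by 2.00 (SE 0.59, adjusted p = 0.0138, limma), a call lost without control FGO replicate 1 or 2. Psmc5 fell by 2.44 (SE 0.81, adjusted p = 0.0274, limma) in the control line, a call lost without any 1 of the control FGO libraries and in a fit of only the 2 groups. Psmc6 fell by 2.82 (SE 0.76, adjusted p = 0.00656, limma) in the K36M line.

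The scaffold subunits of the base, Psmd1 and Psmd2, and the ubiquitin receptor Psmd4 fell in the control line. Psmd2 had 151, 167 and 145 TPM in control FGOs and 44.3, 67.1 and 90.8 TPM (lowest, median, highest) in control embryos, with no overlap, a log2 difference of -1.22 (SE 0.35, adjusted p = 0.0124, limma) and a call lost without control FGO replicate 1 or 2. In the K36M line it had 160, 151 and 150 TPM in FGOs and 63.8, 176 and 288 TPM in embryos, which overlapped, with a log2 difference of 0.07 (adjusted p = 0.916, limma). Psmd4 was at 220, 441 and 888 TPM in control embryos against 973 TPM or more in control FGOs, and fell by 1.18 (SE 0.43, adjusted p = 0.0433, limma), a call lost without any 1 of the control FGO libraries, with a pseudocount of 0.1, with no filter on low values, with quantile normalisation and without the mean-variance trend. Psmd1 fell by 1.38 (SE 0.44, adjusted p = 0.0226, limma), a call also lost without any 1 of these libraries; it overlaps Htr2b on the opposite strand.

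In the lid, a single gene passed the test. Psmd7, which pairs with the deubiquitinase Psmd14, had 116, 121 and 149 TPM in control FGOs and 115, 177 and 202 TPM in K36M FGOs. Control embryos had 152, 475.5 and 757 TPM as lowest, median and highest, and K36M oocyte-derived embryos 164.5, 448 and 780 TPM. All 7 control embryos were above the control FGOs, while the K36M groups overlapped. Psmd7 rose by 1.59 (SE 0.43, adjusted p = 0.00766, limma) in the control line and by 1.38 (SE 0.42, adjusted p = 0.0151) in the K36M line, where the call was lost with a replicate block (adjusted p = 0.0872, limma) and without FGO replicate 1. The other 7 lid genes passed the test in neither line, with log2 differences from -1.445 (Psmd14) to 0.83 (Psmd3) in the control line. Psmd14 itself, at 56.4 TPM in control FGOs on average, had one of the widest intervals, from -4.44 to 1.55.

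**Figure D4:**
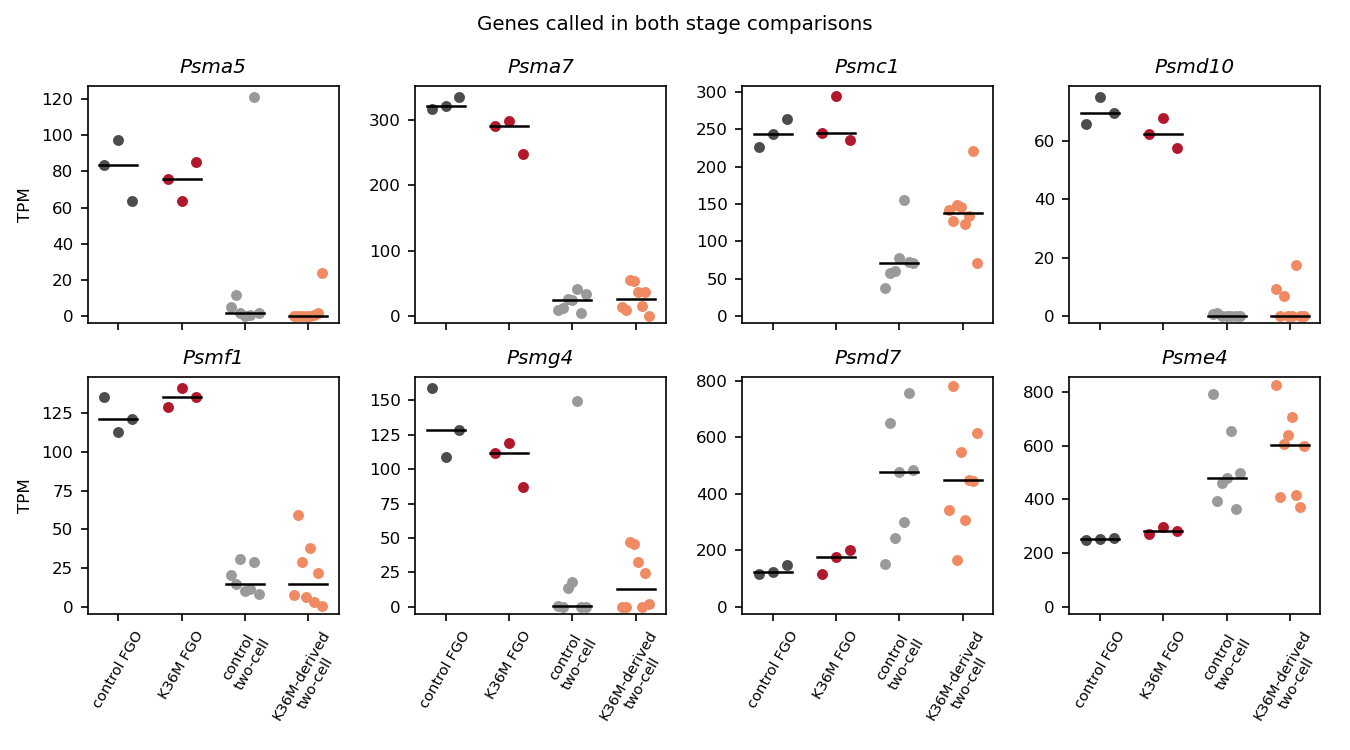
TPM per library of the 8 proteasome genes called in both comparisons of embryos with FGOs; points are libraries and lines the medians of the 4 groups. Psmd10 is at or near 0 in most embryos, 1 control embryo has Psma5 at 121 TPM and 1 has Psmg4 at 149 TPM, and Psme4 lies above the FGO level in every embryo.

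Among the assembly chaperones, Psmd10 (also called gankyrin), which holds the ATPase Psmc4 during assembly of the base, gave the clearest separation. It was at 66.0, 75.1 and 69.6 TPM in control FGOs and at 62.4, 68.0 and 57.5 TPM in K36M FGOs. It was listed at 0 in 5 of 7 control embryos, the highest of which had 0.854 TPM, and in 5 of 8 K36M oocyte-derived embryos, the highest of which had 17.4 TPM. Psmd10 fell by 5.92 on the log2(TPM + 1) scale (SE 0.88, adjusted p = 1.85e-05, limma) in the control line and by 4.67 (SE 0.86, adjusted p = 0.000228) in the K36M line. It overlaps Atg4a on the opposite strand.

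Psmg4, a chaperone of the alpha ring, was at 159, 109 and 129 TPM in control FGOs and at 112, 119 and 87.4 TPM in K36M FGOs. It was listed at 0 in 3 embryos of each genotype, with a median of 0.904 and a highest value of 149 TPM in control embryos and 13.1 and 46.8 TPM in K36M oocyte-derived embryos. The log2 difference was -4.71 (SE 1.47, adjusted p = 0.0198, limma) in the control line, a call lost without any 1 of the control FGO libraries (adjusted p from 0.0524 to 0.0773 over these and a pseudocount of 0.1), and -3.94 (SE 1.44, adjusted p = 0.0420) in the K36M line, a call lost without any 1 of the K36M FGO libraries, with a pseudocount of 0.1, with no filter on low values, with quantile normalisation, without the mean-variance trend and without embryo replicates 2 and 8. Psmd9, another chaperone of the base, fell by 2.25 (SE 0.84, adjusted p = 0.0463, limma) in the K36M line. That call was lost under most alternatives, among them leaving out any 1 of the K36M FGO libraries and quantile normalisation. Psmd5, Psmg1, Psmg2 and Psmg3 passed the test in neither line. Psmd5, the highest of the chaperones, averaged 153.5 TPM in control FGOs and 103 TPM in control embryos, and Psmg1, the partner of Psmg2, had 53.6, 52.1 and 74.3 TPM in control FGOs and 0, 11.5 and 83.6 TPM (lowest, median, highest) in control embryos. Psmg3, the partner of Psmg4, averaged 22.4 TPM in control FGOs, and its log2 difference of -0.23 had a 95% confidence interval from -3.53 to 3.07.

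Psme4 (also called PA200), the activator linked to degradation of acetylated histones, was at 249, 253 and 255 TPM in control FGOs and at 271, 297.5 and 282 TPM in K36M FGOs. Control embryos had 365.5, 478 and 792 TPM and K36M oocyte-derived embryos 373, 602 and 826 TPM as lowest, median and highest. Every embryo was above every FGO library. Psme4 rose by 0.99 (SE 0.25, adjusted p = 0.00442, limma) in the control line and by 0.96 (SE 0.24, adjusted p = 0.00434) in the K36M line, and was the highest proteasome gene of control embryos, at 520 ± 151 TPM, although it did not differ from Psmd4 (485 ± 245 TPM) or Psmd7 (438 ± 219 TPM) beyond their spread. It overlaps Erlec1 on the opposite strand. Psme3, the other nuclear activator, was at 375 ± 2.99 TPM in control FGOs and 355 ± 110 TPM in control embryos, with a log2 difference of -0.13 (95% confidence interval -0.68 to 0.42, adjusted p = 0.765, limma).

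Psmf1 (also called PI31), which inhibits the isolated core, was at 135.5, 113 and 121 TPM in control FGOs and 129, 141 and 135 TPM in K36M FGOs. Its lowest, median and highest values were 7.97, 14.5 and 30.8 TPM in control embryos and 0.273, 14.7 and 59.4 TPM in K36M oocyte-derived embryos. The groups did not overlap in either line. Psmf1 fell by 2.87 (SE 0.84, adjusted p = 0.0131, limma) in the control line and fell by 3.48 (SE 0.82, adjusted p = 0.00243, limma) in the K36M line. The call in the control line was lost without control FGO replicate 1 or 3. The gene overlaps Tmem74b on the opposite strand, and whether the counting used the strand is not given in the sources used here, for this gene as for Psmd1, Psmd10 and Psme4. The same holds for Psma3, Psma4, Psme1, Psmc3ip and Psme3ip1, which also overlap genes on the opposite strand. Psmb5 and Psme2b overlap genes on the same strand.

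The interferon-inducible members were low in FGOs and uneven in embryos. Psmb10, an immune protease subunit, was at 1.00 to 1.48 TPM in control FGOs and at 3.94, 12.8 and 98.8 TPM (lowest, median, highest) in control embryos. The groups did not overlap, but the log2 difference of 3.16 (SE 1.27) did not pass the test (adjusted p = 0.0669, limma). Psmb10 and Psme2 were called higher in a fit of only the 2 groups and with array weights. In K36M oocyte-derived embryos Psmb10 was listed at 0 in 3 of 8 and reached 117 TPM in another. Psme2, a subunit of the interferon-inducible activator, was at 10.03, 14.3 and 5.81 TPM in control FGOs and at 15.9, 39.97 and 183 TPM in control embryos (log2 difference 2.10, adjusted p = 0.129, limma). Its near-identical copy Psme2b was at 2.77 to 3.18 and 2.60 to 104 TPM; reads could be split between the pair, so both values are uncertain. Psme1, the other subunit of that activator, was at 2.60 to 3.79 TPM in control FGOs and at 0, 31.0 and 48.5 TPM in control embryos (log2 difference 2.15, adjusted p = 0.191, limma). Psmb8 was listed at 0 in all 7 control embryos, Psmb9 in 4 of them with a highest value of 12.0 TPM, the thymic Psmb11 in 2 with a highest value of 8.61 TPM, and the meiotic Psma8 in 6 with 1.96 TPM in the other. Beside these, a list of 8 blood and immune markers summed to 4.84 to 6.00 TPM in control FGOs and 30.3 to 154 TPM in control embryos, most of it Cd74 (22.9 to 151 TPM), while both haemoglobin beta genes, Ptprc and Tyrobp were at 0 in every control embryo. The haemoglobin alpha genes Hba-a1 and Hba-a2 were above 0 in 4 of 7 control embryos, up to 7.71 and 7.66 TPM, and Laptm5 reached 7.37 TPM. In K36M oocyte-derived embryos the list summed to 2.94 to 393 TPM, with Cd74 at 2.70 to 332 TPM. Tyrobp reached 142 TPM there in 1 embryo, Hba-a1 29.9 TPM, Hbb-bs 7.74 TPM and Ptprc 5.24 TPM, and Hbb-bt was at 0 in all 8. The part of such RNA in the levels of the immune members was not tested.

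Embryos varied far more than FGOs. Over the 31 constitutive core and cap genes, the median coefficient of variation was 7.25% in control FGOs, 10.3% in K36M FGOs, 51.75% in control embryos and 75.65% in K36M oocyte-derived embryos. All genes of the same range of levels gave 8.37%, 11.7%, 50.3% and 90.6%. In K36M oocyte-derived embryos that range reached down to Psma5, at 3.23 TPM on average, and held 12893 genes. The range of the cap genes there held 5898, with a median of 55.0%, against 51.96% for the cap genes. No FGO value was 0. In control embryos 5 of 217 values were 0, and in K36M oocyte-derived embryos 14 of 112 values of core genes and 1 of 136 values of cap genes were 0. Over all genes of those ranges, 17.5% and 3.09% of values were 0 in the K36M oocyte-derived embryos, against 12.5% and 0.735% here. The core range, which Psma5 also set at its low end, held 12883 genes. Its 17.5% is therefore not a like comparison for the other core genes.

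K36M against control FGOs asked whether loss of H3K36me2 in the oocyte came with a difference in these RNAs. None of the 46 proteasome genes tested was called (limma), while over all 13775 genes tested 1 was (0.00726%). At an unadjusted p under 0.05, 5 members were higher and 1 was lower in K36M FGOs, against 5.15% and 5.34% of all genes. The groups did not overlap for 6 members that were higher and 1 that was lower, against 7.46% and 8.17%. The median log2 difference was 0.04, against 0.01 over all genes. For the 14 core genes it was -0.02 (0.01 without K36M FGO replicate 3), with single values from -0.22 to 0.61, and for the 17 cap genes 0.06, from -0.16 to 0.32. Without K36M FGO replicate 1, 191 genes were called higher and 109 lower over all genes, and still no proteasome gene.

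The smallest p among members belonged to Psmb5, the chymotrypsin-like protease and the lowest of the constitutive beta subunits, at 16.3, 17.3 and 17.1 TPM in control and 24.9, 24.4 and 30.4 TPM in K36M FGOs. The libraries did not overlap, with a log2 difference of 0.61 (SE 0.16, 95% confidence interval 0.25 to 0.98, adjusted p = 0.338, limma). Psmg2 had 2.69, 2.59 and 1.91 TPM against 3.92, 6.38 and 6.56 TPM (log2 difference 0.94, SE 0.31, adjusted p = 0.396, limma), and Psme1 2.60, 3.79 and 3.75 TPM against 4.07, 7.35 and 12.3 TPM (0.93, SE 0.37, adjusted p = 0.447). These 3 genes were among the low members, and no library overlapped in any of them. On the lower side, Psma7 had a log2 difference of -0.22 (SE 0.09, adjusted p = 0.442, limma), Psmg4 of -0.31 (adjusted p = 0.532) and Psmb7, the trypsin-like protease, of -0.18 (adjusted p = 0.599). For Psma7 the libraries did not overlap, and for the other 2 they did. The summed oocyte markers, lower in every K36M FGO library, moved with the genotype too, and their part in these differences was not tested.

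**Figure D5:**
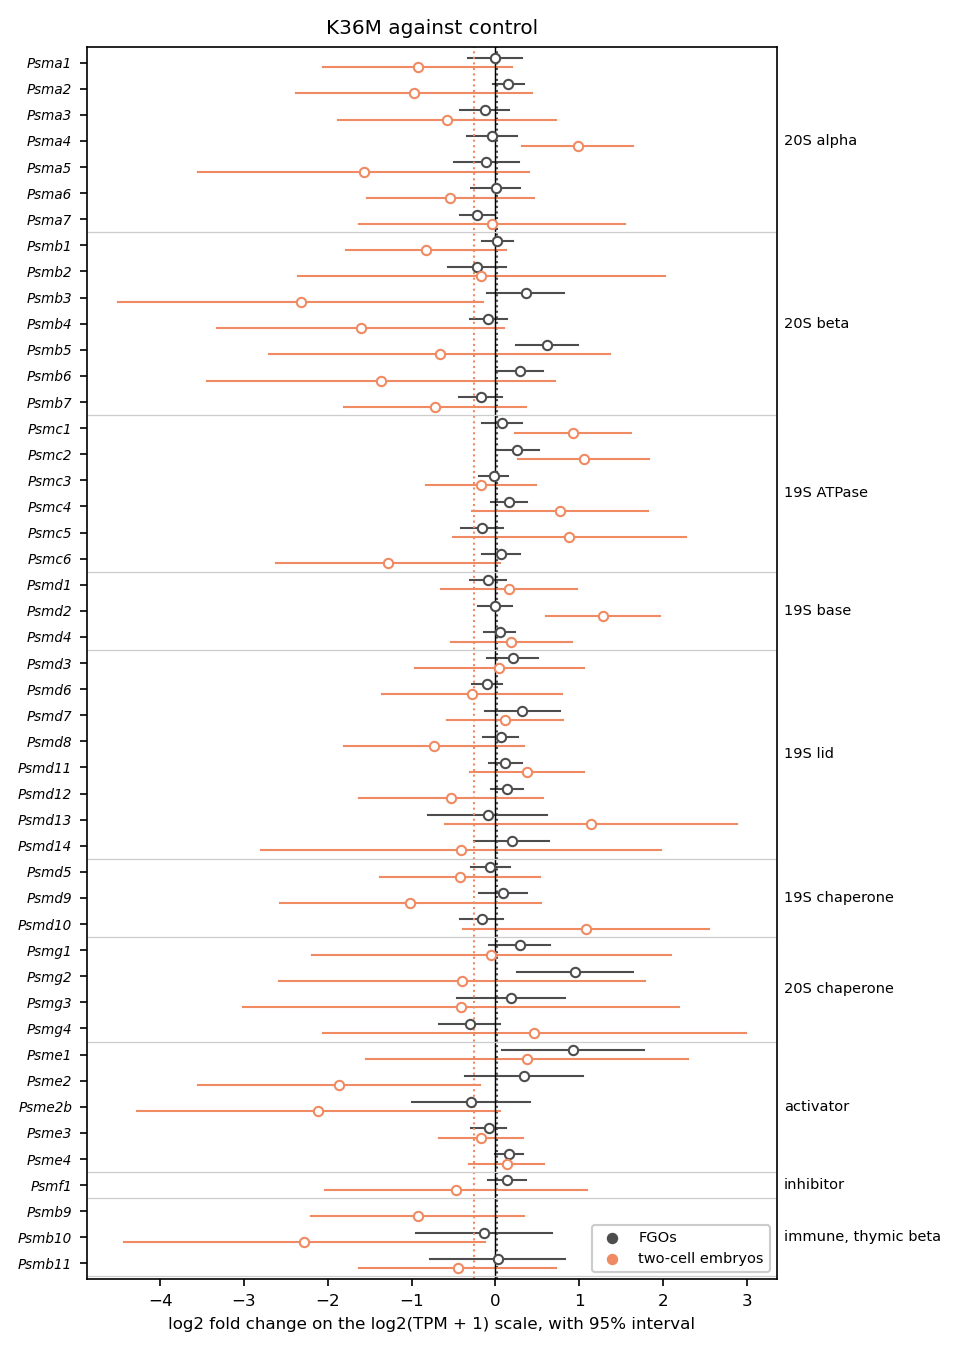
Log2 difference of K36M against control for each tested proteasome gene, in FGOs and in embryos, with 95% confidence intervals; the dotted line is the median of all genes tested and no point is filled because none passed adjusted p under 0.05. Intervals in embryos are wider than in FGOs, Psmb5, Psmg2 and Psme1 lie highest in FGOs, and most core genes lie below 0 in embryos.

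In two-cell embryos, none of 47 proteasome genes was called between K36M oocyte-derived and control embryos, and none of 17362 genes was (limma). Over all genes, 1 was higher and 4 were lower without the mean-variance trend. With array weights 1 gene was lower, and 1 was lower without K36M oocyte-derived replicates 2 and 8. At an unadjusted p under 0.05, 4 members were higher and 3 lower, against 1.2% and 6.5% of all genes. No member had groups that did not overlap, against 0.115% of all genes. The median log2 difference of all genes was -0.26, and that of the 47 members was -0.41. The order did not hold throughout: without K36M oocyte-derived replicates 2 and 8 the medians were -0.16 over all genes and -0.13 over the members, and with control replicate 4 added they were -0.27 and -0.24.

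Psmd2, the scaffold of the base, had the smallest p. Its lowest, median and highest values were 44.3, 67.1 and 90.8 TPM in control embryos and 63.8, 176 and 288 TPM in K36M oocyte-derived embryos. The groups overlapped, and the log2 difference was 1.28 (SE 0.33, 95% confidence interval 0.60 to 1.97, adjusted p = 0.375, limma). Psma4, an alpha subunit, was at 103, 344 and 491 TPM against 244, 545 and 974 TPM (log2 difference 0.98, SE 0.32, adjusted p = 0.545, limma), and the ATPase Psmc2 at 30.4, 78.2 and 126 TPM against 54.1, 161 and 306 TPM (1.05, SE 0.38, adjusted p = 0.563). In both the groups overlapped. Psmc1 had a log2 difference of 0.92 (adjusted p = 0.566, limma). On the lower side, Psme2 had a median of 39.97 TPM in control and 15.7 TPM in K36M oocyte-derived embryos (log2 difference -1.87, adjusted p = 0.603, limma), Psmb3 21.6 and 0.496 TPM (-2.33, adjusted p = 0.61), and Psmb10 12.8 and 1.30 TPM (-2.28, adjusted p = 0.621).

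By class, 13 of the 14 core genes had a negative log2 difference in embryos, all but Psma4, with a median of -0.77 against -0.26 over all genes, of which 11084 of 17362 had a negative difference. The 17 cap genes had a median of 0.17, with 6 negative. None of these genes passed the test. Over the alternatives the core median ran from -0.94 with a replicate block to -0.47 with control replicate 4 added, where the median of all genes was -0.27 and 12 of the 14 were negative. Without K36M oocyte-derived replicates 2 and 8 it was -0.73, with 11 of 14 negative. The cap median ran from 0.015 with array weights, where 8 of the 17 were negative, to 0.275 with control replicate 4 added. The summed core TPM, which Psma4 leads in embryos, was nearly the same in both groups, 1411 ± 319 and 1399 ± 359 TPM.

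Whether the difference between genotypes itself differed between FGOs and embryos was tested with an interaction term. No gene was called over all 17358 tested (limma), with 1.15% at an unadjusted p under 0.05, against 1 of 47 members. Some alternatives called genes, none of them members, among these 11 higher and 2 lower with no filter on low values, 1 and 2 with array weights, and 0 and 3 without K36M FGO replicate 2. Among members the smallest p was that of Psmd2, with a difference of 1.29 on the log2 scale (SE 0.50, 95% confidence interval 0.27 to 2.31, adjusted p = 1.00, limma). The differing lists of genes that fell in the control and the K36M line were therefore not shown to differ.

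Around the proteasome, 3 further lists were described: partners outside the symbol rule, the transcription route of proteasome genes, and substrate delivery with ubiquitin supply. None of their genes passed the test between genotypes at either stage. Of 9 partners, 2 fell in embryos of the control line and 3 of the K36M line. Akirin2, which carries proteasomes into the nucleus, went from 925 to 970 TPM in control FGOs to 160.5 to 434 TPM in control embryos and fell by 1.66, and Ecpas, a proteasome adaptor, by 1.59. The 2 did not overlap between stages in the control line. In the K36M line Txnl1, a redox protein bound to the cap, also fell by 2.12.

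Nfe2l1, the factor that raises proteasome transcription when proteolysis falls short, rose in both lines, from 162 to 173 TPM in control FGOs to 401 to 560 TPM in control embryos (log2 difference 1.42) and with a log2 difference of 1.30 in the K36M line. Every control embryo was above every control FGO library. Ddi2, the protease that activates it, fell by 1.11 in the K36M line, from 238 to 267.5 TPM in FGOs to 89.9 to 177 TPM in embryos. Among the delivery and ubiquitin genes reported here, Zfand2a, a stress-induced partner of the proteasome, rose by 1.71 in the control line, and Zfand2b, its relative at the endoplasmic reticulum, fell by 3.76. In the K36M line Zfand2a and Zfand5 rose, and Zfand2b, Ubqln1, Uba6 and Nploc4 fell; Zfand2b was listed at 0 in 6 of 8 embryos there. The calls of Zfand5 and Uba6 were lost without any 1 of the K36M FGO libraries, and also with a replicate block for Zfand5 and in a fit of only the 2 groups for Uba6 (highest adjusted p 0.0774 and 0.143, limma). That of Nploc4 was lost without replicate 1 or 2 (highest adjusted p 0.0581, limma), that of Txnl1 without replicate 2 (0.0519), and that of Zfand2b in the control line without control FGO replicate 3 or with a replicate block (highest 0.0527). Over all genes, 13.4% rose and 13.2% fell in the control line and 10.8% and 18.6% in the K36M line.

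The 2 rows that matched by letters only passed the test in no comparison. Psmc3ip had 165 TPM in control FGOs and 436 TPM in control embryos on average (log2 difference 0.93, adjusted p = 0.295, limma), and Psme3ip1 197 and 160 TPM (-0.42, adjusted p = 0.53).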

How the data were processed

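RNA was measured by SMART-Seq stranded sequencing in FGOs and two-cell embryos. The deposited values are TPM, which the authors made from reads aligned to mm10; their notes name HISAT2 and featureCounts. The annotation, gene lengths and strand setting behind the TPM are not given in the sources used here. TPM keep no read depth, and the read totals that the study lists per library entered no test. TPM were tested with limma 3.58.1 (R 4.3.3) on log2(TPM + 1) over genes with a mean of at least 1 TPM, with a mean-variance trend and Benjamini-Hochberg adjustment at 0.05. Fold changes on this scale understate those of low genes. Genotypes were compared within each stage, and both stage comparisons and the interaction came from one fit of all 4 groups. That fit gives each gene a single spread for FGO pools and single embryos, although embryos varied far more. The part of this in calls lost without 1 FGO library, and in genes not called though their groups did not overlap, was not tested. The fits were tested on simulated data. Summaries used Python 3.11.15, pandas 2.3.3, numpy 2.4.6, scipy 1.17.1 and matplotlib 3.10.9. The labels do not say that samples came from separate animals, so p-values measure the spread between these samples. With 3 against 3 libraries an exact permutation test cannot go below 0.1. The members and gene lists were chosen with earlier results of these data known. Members with the smallest p (3 per direction, genotype) or the largest called fold (4 per direction, stage), the 3 highest and 3 lowest in control groups among those with a mean of at least 1 TPM, activators, chaperones and special subunits were named, and other called members were named after their values were seen. Promoters came from RefSeq (GRCm38.p6). A gene of the delivery list is not reported here, Paaf1 was not used here, and chromatin and methylation assays were not analysed here. Alternatives were another pseudocount, other low-value filters, other scalings, no trend, array weights, a replicate block and leaving out libraries.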

Additional observations from a re-analysis of the deposited data

Results flagged for a closer look

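In 14 of 102 gene-and-group combinations of embryos, 1 embryo stood apart from the others of its group by Dixon's criterion on log2(TPM + 1). At 1 in 20 groups, about 5.1 would do so if values were independent and normally distributed, which these were not shown to be. The share over all genes is not given here, so the count does not set the members apart from other genes. Psmb8 in control and Psma8 in K36M oocyte-derived embryos were at 0 throughout and could not be flagged. Low values against their group were Psmb7 in control replicate 1 (36.2 TPM, the nearest embryo at 128 TPM), Psma2 in control replicate 3 (38.3 TPM, nearest 76.7 TPM), Psmd8 in control replicate 6 (82.95 TPM, nearest 152 TPM), Psmb3 in control replicate 6 (0, nearest 10.8 TPM) and Psme1 in control replicate 8 (0, nearest 13.6 TPM). Among K36M oocyte-derived embryos they were Psma7 in replicate 8 (0, nearest 9.46 TPM), Psmd8 in replicate 8 (8.36 TPM, nearest 74.7 TPM), Psmd3 in replicate 2 (14.9 TPM, nearest 118 TPM), Psmc3ip in replicate 3 (61.3 TPM, nearest 260 TPM) and Psmb1 in replicate 5 (15.7 TPM, nearest 101 TPM). High values were Psma5 in K36M oocyte-derived replicate 8 (24.0 TPM, nearest 1.28 TPM), Psmb3 in replicate 4 (173.7 TPM, nearest 2.63 TPM) and Psmb9 in replicate 1 (1.525 TPM, all others at 0), and Psma8 in control replicate 2 (1.96 TPM, all others at 0). Replicates 8 and 2 of the K36M oocyte-derived embryos also had the fewest genes at 1 TPM or more, 9763 and 9722; whether this had a part in their values was not tested.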

How the results depend on the processing

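No called value of a named gene changed sign. Some medians of gene classes did. Between FGO genotypes the core median (-0.02) was 0.01 without K36M FGO replicate 3, the chaperone median (0.09) was -0.07 without control FGO replicate 3 and -0.002 without K36M FGO replicate 3, and the beta median (0.02) was -0.001 to -0.03 without control FGO replicate 1 or 2 or K36M FGO replicate 1. Elsewhere, the chaperone median between embryo genotypes (-0.40) was 0.44 without K36M oocyte-derived replicates 2 and 8, and the activator median in the K36M line (0.38) was -0.23 with a pseudocount of 0.1. In the interaction, the chaperone median (-0.36) was 0.19 without replicates 2 and 8. Of the values that answer a comparison, 203 stayed within their range under an alternative and 15 moved. Of those for the genes named by rule, called or not, 511 stayed on their side of the threshold and 22 calls were lost. Psmc1, Psmd9 and Psmg4 in the K36M line, whose losses are given above, were not in this count. Nor were Psmc4, Psmc5, Psmd1, Psmd2, Psmd4 and Psmf1 in the control line, whose losses are also given above. In the control line, array weights gave 8 proteasome genes higher and 17 lower in embryos (4883 and 4847 over all genes, against 2323 and 2292), a fit of only the 2 groups gave 4 higher (2539 over all genes), and leaving out 1 control FGO library gave 3 to 6 lower. In the K36M line, array weights gave 4 higher and 24 lower (3347 and 5180 over all genes, against 1866 and 3228), and leaving out 1 FGO library gave 1 to 2 higher. The cause was not tested. Median-of-ratios scaling, fixed by construction to a different total per library, moved median sums to 2570.6 TPM (core), 3741.9 TPM (cap), 518.2 TPM (chaperones) and 691.6 TPM (activators) in control FGOs, and to 3890.4 TPM (cap) in K36M FGOs, while those of control embryos fell from 1390 to 1263 TPM (core), 2696 to 2275 TPM (cap) and 974.8 to 832.6 TPM (activators). Without K36M oocyte-derived replicates 2 and 8, chosen after seeing the data, 3 proteasome genes rose and 10 fell in the K36M line. TPM keep no read depth, so a value at 0 in a single embryo has no detection limit here.

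Same-numbered libraries of the genotypes correlated at 0.0145 to 0.101 in FGOs and -0.101 to 0.0968 in embryos, so the numbers were not taken as pairs. With a replicate block, 2 proteasome genes rose and 11 fell in the control line (2156 and 1731 over all genes) and 1 rose and 12 fell in the K36M line (1746 and 2453 over all genes), and none was called between genotypes.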
